A study of Mus musculus with 18 samples.

Results

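Among the genes whose signal differed most between starved and control macrophages, 8 little-studied genes are described here across every sample: Tspan7, Atp13a4, Plxna4, Cyp2s1, Prss46 and Rgs2, which were higher in starved cells, and Itga11 and Lurap1l, which were lower. They were picked from these same arrays for a very large or very even difference between starved and control samples, so that difference is given below as a description, with no test. All 8 were on the array and passed the filter on dim probes, out of 20813 genes tested, and they were measured by 11 probes.

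Macrophages were grown over 7 days from the femoral marrow of male C57BL/6J mice aged 8 weeks, in M-CSF, the growth factor that turns marrow cells into macrophages. The mice carried a knockout of PHD3 (genotype PHD3-/-) or were wild type. Egln3 encodes PHD3, an enzyme that uses oxygen to hydroxylate hypoxia-inducible factor and so leads to its destruction. There were 6 groups of 3 samples: starved knockout and starved wild-type cells at an oxygen concentration of 20, knockout and wild-type cells at oxygen 1 with control feeding, and knockout and wild-type cells at oxygen 20 with control feeding, called controls here. The labels give no unit for oxygen and say that no animal was treated, but not whether it was the mice or the cultures that were starved. They give 3 mice for each group without saying if one mouse served several groups, so p-values measure the spread between these samples.

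The 8 genes have different roles. Tspan7 is a tetraspanin, a membrane protein that gathers partner proteins into patches, and is best known in neurons. Atp13a4 belongs to the P5-type transport ATPases, a family with members that carry polyamines out of lysosomes. Plxna4 is a plexin, a receptor for semaphorins that steers growing axons. Cyp2s1 is a cytochrome P450 that can be induced through the aryl hydrocarbon receptor and oxidises retinoic acid. Prss46 has the fold of a trypsin-like serine protease. Itga11 is the integrin chain that pairs with Itgb1 to bind fibrillar collagen, mainly on fibroblasts, and Lurap1l is a relative of Lurap1, an adaptor that links the kinase MRCK to myosin. Rgs2 shortens signalling by the G protein Gq.

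Each array held 43020 spots, of which 56.1% to 65.4% were well above background, and no spot was saturated. An earlier analysis of these data found 3 samples apart from their groups: knockout control replicate 3, wild-type control replicate 1 and starved wild-type replicate 3. Without them the same genes passed the test at oxygen 1. The 8 differences between starved and control cells kept their directions, which is no check, since these samples chose the genes. Samples correlated with the others of their group at a mean r of 0.989 to 0.994 across genes, which are not independent replicates. Egln3 was well above background in all 18 samples with both of its probes. With the brighter one its level at oxygen 1 was 2.89 to 3.12 in knockout samples and 2.97 to 3.15 in wild-type samples, as log2 signal minus the 75th percentile of the array, the scale used throughout. Whether either probe lies in the deleted part is not given, so this signal does not check the genotype labels, and the genotypes are those of the labels. Of 12 macrophage markers 11 were on the array, among them Adgre1, Csf1r and Cd14, and all of these were well above background in every sample.

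Promoter stretches of 250 bases before the start of the gene are shown for the 4 windows that held at least 1 of 6 searched motifs, and for Itga11, which was lower in starved cells, as a window that held none. The sequences are those of RefSeq on build GRCm38.p6, written in the sense of the gene, and 7 of the 8 genes had an entry, in 8 windows. The motifs were ACGTG and GCGTG (core of the hypoxia response element, and GCGTG also of the aryl hydrocarbon receptor site), CACGTG (E-box, which overlaps the first motif), TGACG (core of the cAMP response element), TGTTTAC (forkhead) and TGACTCA (AP-1), searched on both strands. Capitals mark the matches, and a match on the other strand appears as its reverse complement. The windows are chr1:144004150-144004399 on the minus strand for Rgs2, chr9:110844256-110844505 on the plus strand for Prss46, chrX:10484866-10485115 on the plus strand for Tspan7, chr16:29544865-29545114 on the minus strand for the second start of Atp13a4, and chr9:62677605-62677854 on the plus strand for Itga11.
Rgs2: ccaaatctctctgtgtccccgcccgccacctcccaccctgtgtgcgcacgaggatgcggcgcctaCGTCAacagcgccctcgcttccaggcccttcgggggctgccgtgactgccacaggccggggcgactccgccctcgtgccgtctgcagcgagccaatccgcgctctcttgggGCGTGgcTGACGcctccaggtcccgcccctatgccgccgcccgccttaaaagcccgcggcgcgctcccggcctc
Prss46: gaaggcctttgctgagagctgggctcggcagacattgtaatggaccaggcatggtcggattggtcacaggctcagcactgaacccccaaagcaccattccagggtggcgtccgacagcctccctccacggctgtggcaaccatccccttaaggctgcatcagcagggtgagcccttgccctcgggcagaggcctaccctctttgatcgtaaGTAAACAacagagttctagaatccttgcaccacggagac
Tspan7: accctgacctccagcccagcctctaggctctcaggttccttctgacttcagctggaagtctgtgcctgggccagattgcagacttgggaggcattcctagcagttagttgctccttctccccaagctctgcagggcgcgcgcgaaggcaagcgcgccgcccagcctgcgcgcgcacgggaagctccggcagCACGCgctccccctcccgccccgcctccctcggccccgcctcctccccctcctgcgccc
Atp13a4: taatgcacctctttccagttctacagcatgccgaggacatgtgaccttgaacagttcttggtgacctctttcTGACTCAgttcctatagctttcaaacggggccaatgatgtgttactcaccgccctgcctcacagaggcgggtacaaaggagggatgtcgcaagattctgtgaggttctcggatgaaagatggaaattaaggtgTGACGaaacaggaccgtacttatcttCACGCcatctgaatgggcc
Itga11: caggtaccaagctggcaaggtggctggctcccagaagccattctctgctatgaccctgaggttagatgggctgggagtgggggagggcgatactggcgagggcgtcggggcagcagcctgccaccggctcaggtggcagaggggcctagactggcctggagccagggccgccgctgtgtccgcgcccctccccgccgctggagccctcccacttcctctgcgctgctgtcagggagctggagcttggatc

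The Rgs2 window held TGACG on both strands, 185 and 67 bases before the start, and GCGTG 74 bases before it. In the Prss46 window the forkhead motif stood 39 bases before the start, on the other strand, and 3.17% of the 32851 mouse promoter windows of this length hold it. GCGTG, present in the windows of Rgs2, Tspan7 and Atp13a4, is in 28.2% of all windows, TGACG in 17.8% and TGACTCA, present for Atp13a4, in 4.46%. ACGTG and CACGTG, held by 16.6% and 6.02% of all windows, were in none of the 8 windows. None of the 6 motifs was in the windows of Cyp2s1, Itga11 and Lurap1l or in the other window of Atp13a4. These matches describe letters in a window and were not tested against the expression values.

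**Figure D1:**
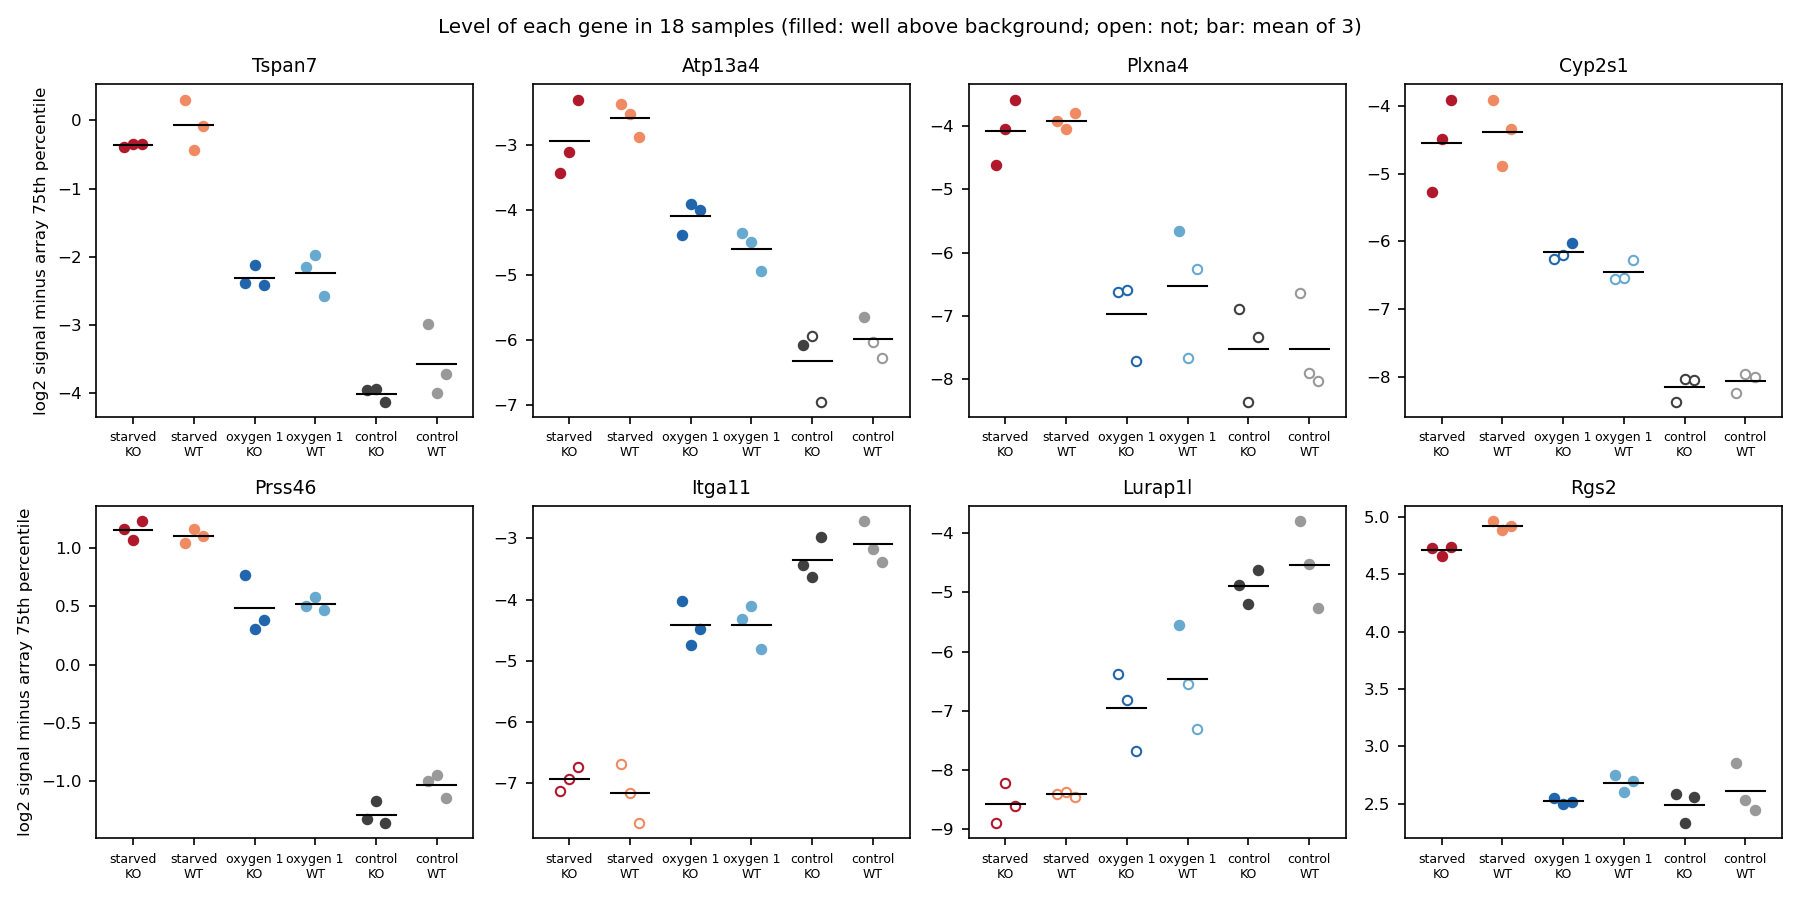
Level of each of the 8 genes in the 18 samples, as log2 processed signal minus the 75th percentile of the array (y axis, with its own range in each panel), in starved, oxygen 1 and control samples of knockout (KO) and wild-type (WT) mice. Points are samples, filled where the probe was well above background, and bars are means of 3. In all 8 panels the starved samples lie apart from the 6 controls, and in the Rgs2 panel the samples at oxygen 1 lie among the controls.

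Tspan7 read -0.39, -0.34 and -0.35 in starved knockout samples and 0.31, -0.43 and -0.08 in starved wild-type samples. At oxygen 1 it read -2.38, -2.13 and -2.41 in knockout and -2.16, -1.97 and -2.58 in wild-type samples. Control samples read -3.96, -3.94 and -4.13 in the knockout and -2.99, -4.00 and -3.72 in the wild type. The conditions were thus ordered starved, oxygen 1, control in both genotypes, with no overlap between neighbours, and the smallest gap, between oxygen 1 and control samples of the wild type, was 0.41. Starved cells exceeded controls by 3.65 in the knockout and 3.50 in the wild type, which are 12.6-fold and 11.3-fold differences, the 7th largest rise of all genes in each genotype. Tspan7 was well above background in all 18 samples.

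Cyp2s1 stood at -5.27, -4.49 and -3.91 in starved knockout samples and at -3.92, -4.88 and -4.34 in starved wild-type samples. Its 6 control values lay between -8.36 and -7.95, and its 6 values at oxygen 1 between -6.56 and -6.03, so that the 3 conditions did not overlap. The gene was well above background in all 6 starved samples, in 1 sample at oxygen 1 and in none of the controls. The measured means differed by 3.59 in the knockout and 3.67 in the wild type. Set against the lowest signal that counts as above background, the bound for starved over control cells was at least 3.17-fold in the knockout and at least 3.83-fold in the wild type. That bound holds for the processed signals. With the normexp background correction, an alternative that compresses low signals, the log2 differences were smaller, at 0.73 in the knockout and 1.33 in the wild type.

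For Atp13a4 the brighter probe read -3.43, -3.11 and -2.30 in starved knockout samples and -2.36, -2.53 and -2.88 in starved wild-type samples. It read -4.38, -3.91 and -4.00 at oxygen 1 in the knockout and -4.37, -4.50 and -4.95 in the wild type. Controls gave -6.08, -5.94 and -6.96 in the knockout and -5.65, -6.04 and -6.29 in the wild type, and only 1 control sample of each genotype was well above background. Neighbouring conditions did not overlap in either genotype. The starved minus control difference was 3.38 in the knockout and 3.40 in the wild type. With the normexp background correction it was smaller, at 1.47 in the knockout and 1.92 in the wild type. The dimmer probe was above background in 5 of 18 samples, of which 2 were starved knockout, 1 was starved wild type and none was a control. It gives only bounds, at least 1.47-fold in the knockout and at least 1.33-fold in the wild type.

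Plxna4 reached -4.62, -4.04 and -3.58 in starved knockout samples and -3.91, -4.05 and -3.80 in starved wild-type samples, all well above background. None of its 6 control samples was, and their values were scattered between -8.35 and -6.63. At oxygen 1 the values ranged from -7.71 to -5.65, overlapping the controls in both genotypes, with 1 of 6 samples above background. On the processed signals, starved cells were higher than controls by at least 4.41-fold in the knockout and at least 5.29-fold in the wild type. With the normexp background correction the log2 differences were smaller than these bounds, at 1.05 in the knockout and 1.49 in the wild type. A second probe for Plxna4 was above background in 4 of 18 samples, only 1 of them starved, and correlated with the first at r = 0.27 over the 18 samples, so it gives no bound in either genotype. The high level of Plxna4 in starved cells therefore rests on the other probe.

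Prss46 differed less than the genes above but varied little. Starved samples gave 1.16, 1.06 and 1.23 in the knockout and 1.05, 1.16 and 1.10 in the wild type. Samples at oxygen 1 gave 0.77, 0.30 and 0.38 in the knockout and 0.50, 0.58 and 0.47 in the wild type, and controls -1.33, -1.17 and -1.36 in the knockout and -0.99, -0.95 and -1.15 in the wild type. Neighbouring conditions were separated in both genotypes, by 0.29 or more on the log2 scale. The starved minus control difference was 2.44 in the knockout and 2.13 in the wild type, and the gene was above background in all 18 samples.

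Rgs2 behaved differently at oxygen 1. Its starved samples read 4.73, 4.66 and 4.73 in the knockout and 4.96, 4.88 and 4.92 in the wild type. At oxygen 1 it read 2.55, 2.50 and 2.51 in the knockout and 2.75, 2.60 and 2.70 in the wild type, and controls read 2.58, 2.33 and 2.56 in the knockout and 2.85, 2.53 and 2.45 in the wild type. Starved samples thus stood 2.03 or more above every other sample of their genotype, while oxygen 1 and control samples overlapped. The difference between starved and control cells was 2.22 in the knockout and 2.31 in the wild type, 4.65-fold and 4.95-fold. The dimmer of its probes, also above background in all 18 samples, gave 2.17 and 2.51, and followed the brighter one at r = 0.95.

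**Figure D2:**
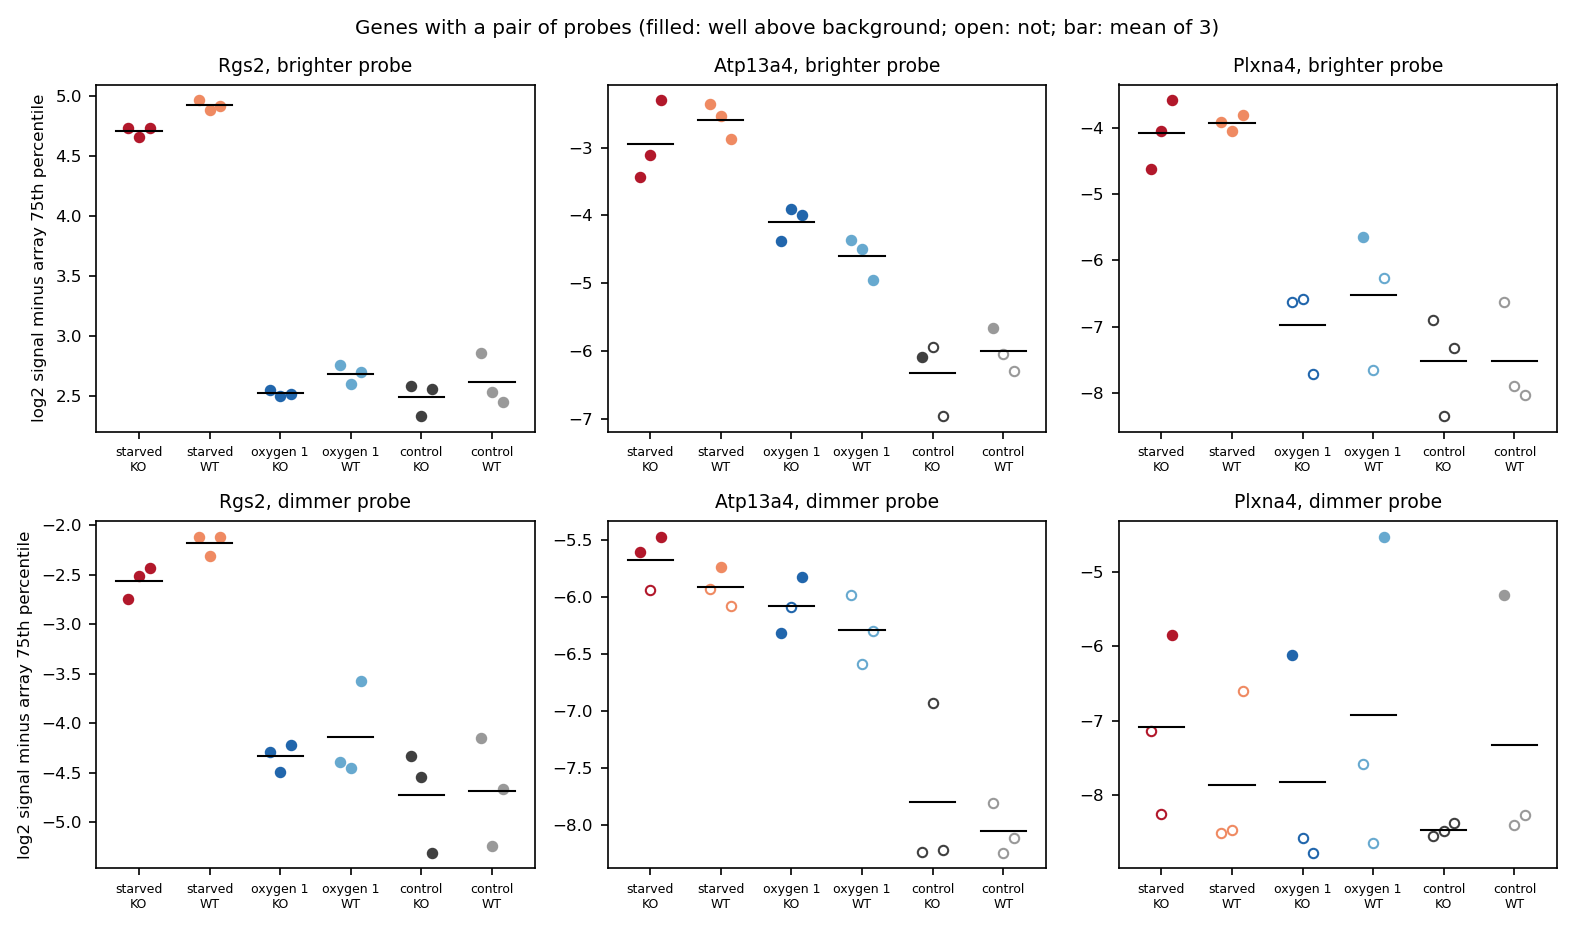
Values of both probes of Rgs2, Atp13a4 and Plxna4 in the 18 samples, as log2 processed signal minus the 75th percentile of the array (y axis, own range in each panel); filled points are well above background and bars are means of 3. Starved samples lie above controls with both probes of Rgs2 and Atp13a4, and with the brighter probe of Plxna4, though 3 of the 6 starved samples are below background with the dimmer Atp13a4 probe, and most samples are with the dimmer Plxna4 probe.

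Itga11, the collagen-binding integrin chain, was not well above background in any starved sample. Starved samples read -7.13, -6.93 and -6.74 in the knockout and -6.68, -7.16 and -7.66 in the wild type. At oxygen 1 the values were -4.02, -4.74 and -4.49 in the knockout and -4.32, -4.11 and -4.82 in the wild type, and controls gave -3.43, -3.63 and -2.97 in the knockout and -2.72, -3.17 and -3.39 in the wild type, all well above background. The order was the reverse of that of Tspan7, Cyp2s1, Atp13a4 and Prss46: control highest, oxygen 1 in the middle and starved lowest, with no overlap between neighbours. On the processed signals, Itga11 was at least 8.74-fold lower in starved knockout cells and at least 9.16-fold lower in starved wild-type cells than in their controls. With the normexp background correction the log2 differences were -1.25 in the knockout and -0.80 in the wild type, smaller than these bounds.

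The summed level of the 10 stromal and endothelial markers was also lower in starved cells, at 1.53 to 2.02 in starved knockout and 1.28 to 1.93 in starved wild-type samples, against 2.11 to 2.41 in knockout and 2.15 to 2.35 in wild-type controls. The markers did not move as one. Of the 9 tested, 1 passed as higher and 2 as lower in the knockout, and 1 as higher and 3 as lower in the wild type, with a median difference of 0.14 in the knockout and -0.06 in the wild type. Col1a1 and Col1a2, the chains of type I collagen, fell in both genotypes. Col1a1 changed by -3.52 in the knockout and -3.41 in the wild type, and Col1a2 by -2.80 and -2.67. Lum, a collagen-binding proteoglycan, rose by 2.21 in the knockout and 2.56 in the wild type, with 1 of 3 controls of each genotype above background, and Pdgfra, a defining receptor of fibroblasts, was above background in none of the 18 samples. Fewer cells of a type and less RNA per cell cannot be told apart in such samples. The part of these markers in the results for Itga11 and Lurap1l was not tested. The summed level of 8 neutrophil markers was also lower, at 2.64 to 3.32 in starved knockout and 3.00 to 3.37 in starved wild-type samples, against 3.43 to 4.11 in knockout and 3.70 to 4.36 in wild-type controls. Of the 7 tested, 4 passed in the knockout and 5 in the wild type, all lower, with medians of -1.89 and -1.76, and their part was not tested.

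Lurap1l read -8.89, -8.22 and -8.60 in starved knockout samples and -8.39, -8.38 and -8.45 in starved wild-type samples, with none above background. Values at oxygen 1 were -6.38, -6.81 and -7.67 in the knockout and -5.56, -6.54 and -7.30 in the wild type, and 1 of these 6 samples was above background. All 6 controls were, at -4.88, -5.19 and -4.62 in the knockout and -3.80, -4.53 and -5.27 in the wild type. Conditions did not overlap within a genotype. On the processed signals, starved cells were lower than controls by at least 2.98-fold in the knockout and at least 3.38-fold in the wild type. With the normexp background correction the log2 differences were smaller than these bounds, at -0.67 in the knockout and -0.12 in the wild type.

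The comparison of starved with control cells chose the genes, so its calls are no test of them. The fit called all 8 in both genotypes, but with the normexp background correction it did not call Itga11 and Lurap1l in either genotype or Cyp2s1 in the knockout, and with the mean over probes it did not call Plxna4 in the wild type. At an adjusted p under 0.05 limma called 13.4% of the 20813 genes in the knockout, 7.23% higher and 6.18% lower, and 12.5% in the wild type, 6.89% higher and 5.59% lower. In the wild type the larger share turned with the scaling. Of the genes called there, 55.2% were higher, against 49% with quantile normalization and 49.6% with the authors' values. In the knockout these shares were 53.9%, 51.8% and 54%. Starved and control samples of one number shared a slide. The smallest difference within a slide was 1.71, for Plxna4 in the knockout, and the common direction on all 3 slides of each genotype follows from the choice of the genes on these samples.

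Low oxygen was not used to pick the genes, although its controls are the controls of the starvation comparison, so the 2 sets of differences are not independent. In knockout cells at oxygen 1, 6 of the 8 genes passed the threshold, 4 higher and 2 lower than in controls, in a comparison that called 39.8% of all genes, 22.4% higher and 17.5% lower. The same 6 passed in wild-type cells, where 38.6% of all genes were called, 20.7% higher and 17.9% lower. The larger share turned with the scaling: of the genes called, 56.1% were higher in the knockout and 53.7% in the wild type, against 49.3% and 45.9% with quantile normalization and 49.6% and 46.4% with the authors' values. Tspan7 was higher by 1.70 ± 0.23 in the knockout (SE of the fit, n = 3 per group, limma adjusted p = 3.62e-05) and by 1.33 ± 0.23 in the wild type (limma adjusted p = 0.000353). Prss46, with the smallest errors of the 6, was higher by 1.77 ± 0.11 in the knockout (limma adjusted p = 2.07e-08) and 1.55 ± 0.11 in the wild type (limma adjusted p = 8.34e-08), 3.41-fold and 2.92-fold. Genes picked for a very even difference between starved and control samples vary little in them. That spread enters the errors of the fit, which may therefore be too small.

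Atp13a4 rose by 2.23 ± 0.30 in the knockout and 1.39 ± 0.30 in the wild type (limma adjusted p = 3.74e-05 and 0.00217). Cyp2s1 is counted among the 6, but it had passed the filter on dim probes through its 6 starved samples. Its fitted differences were 1.98 ± 0.28 in the knockout and 1.60 ± 0.28 in the wild type (limma adjusted p = 4.65e-05 and 0.000342). Only 1 of 3 knockout samples at oxygen 1 and no control was above background, which bounds the difference at 1.04-fold or more. In the wild type no sample at oxygen 1 and no control was above background, so both sides of that comparison are background signals. Itga11 fell by 1.07 ± 0.27 in the knockout and by 1.32 ± 0.27 in the wild type (limma adjusted p = 0.00588 and 0.00141), with all samples on both sides above background. Lurap1l is also counted among the 6, but it had passed the filter on dim probes through its 6 controls. They are 1 side of this comparison, so its p-values are no independent test. The gene fell by 2.05 ± 0.43 in the knockout and by 1.94 ± 0.43 in the wild type (limma adjusted p = 0.00136 and 0.00228). In the knockout that is at least 2.63-fold.

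The other two genes did not pass. The difference for Plxna4 was 0.55 in the knockout (95% interval -0.56 to 1.67, limma adjusted p = 0.435) and 0.99 in the wild type (-0.12 to 2.11, limma adjusted p = 0.150). Without wild-type oxygen 1 replicate 2 the wild-type value was 1.56 and passed (limma adjusted p = 0.0262). Plxna4 had passed the filter on dim probes through its 6 starved samples. Only 1 of its 6 samples at oxygen 1 and no control was above background. These differences, with that pass, are thus mostly between background signals. For Rgs2 the difference was 0.03 in the knockout (95% interval -0.19 to 0.25, limma adjusted p = 0.848) and 0.07 in the wild type (-0.15 to 0.29, limma adjusted p = 0.617). The dimmer Rgs2 probe was 0.39 higher in the knockout and 0.54 higher in the wild type at oxygen 1, with overlapping groups in both genotypes.

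With the normexp background correction, which compresses low signals, the low-oxygen calls of Cyp2s1, Itga11 and Lurap1l were lost in both genotypes and that of Atp13a4 in the wild type (limma adjusted p = 0.0967), leaving 3 of 8 genes called in the knockout and 2 of 8 in the wild type. On slides that held both oxygen 1 and control samples, 3 for the knockout and 1 for the wild type, the 6 genes kept their direction. On 1 of the knockout slides both were second arrays of samples already on the others, so these slides are not independent.

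**Figure D3:**
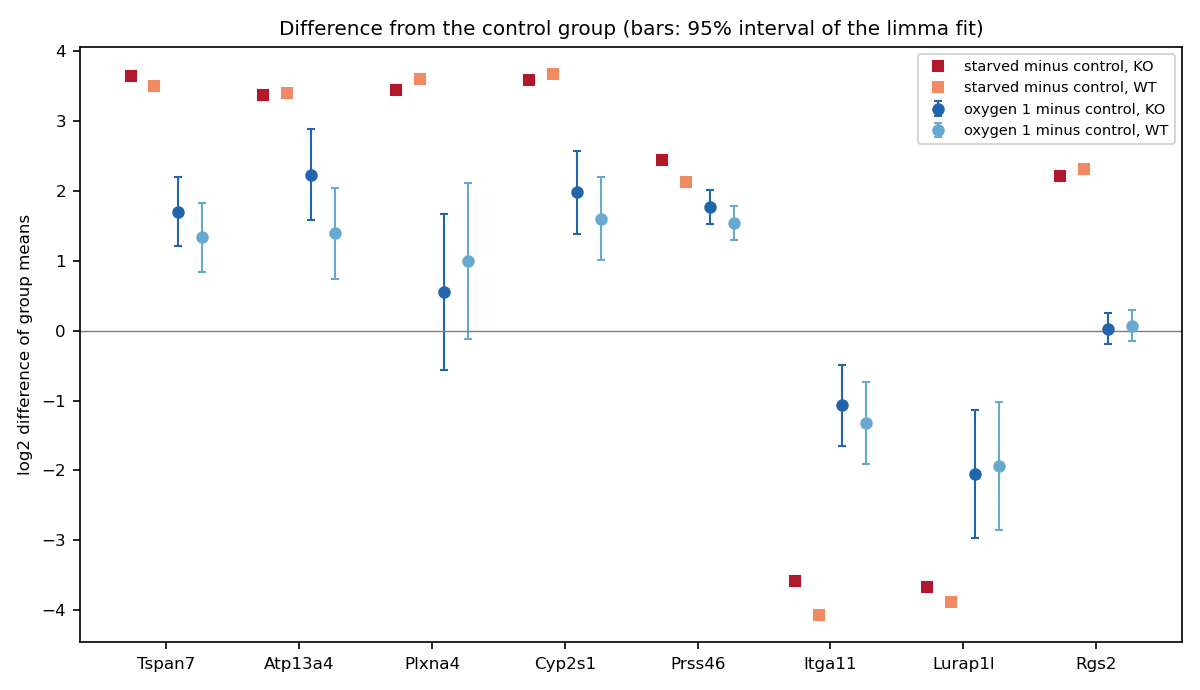
Difference from the control group of the same genotype for each of the 8 genes, in log2 units (y axis): squares are starved minus control, given without an interval because it chose the genes, and circles are oxygen 1 minus control with the 95% interval of the limma fit, for knockout (KO) and wild-type (WT) cells. At oxygen 1 the differences of 6 genes are on the same side of 0 as in starved cells and smaller, and the intervals of Plxna4 and Rgs2 include 0.

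No difference between the genotypes passed the threshold for any of the 8 genes. At oxygen 1, knockout minus wild-type differences lay between -0.49 for Lurap1l and 0.51 for Atp13a4, each with limma adjusted p = 1.00. In that comparison limma called 0 of 20813 genes, 0% of them, with 366 at an unadjusted p under 0.05. The tightest bounds were for Rgs2, at -0.16 (95% interval -0.39 to 0.06), and Prss46, at -0.03 (-0.27 to 0.21). The fit pools the spread of all groups, and some genes were picked for even values in starved and control samples. These intervals may therefore be too narrow. For Plxna4 the interval was wide, from -1.56 to 0.67, and a moderate difference was not detectable. For Lurap1l, Cyp2s1 and Plxna4 at most 1 of 3 samples of either genotype was above background at oxygen 1. Their genotype differences there are mostly between background signals.

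Averaged over the 3 conditions, the genotype differences of the 8 genes ran from -0.34 for Lurap1l to 0.01 for Cyp2s1, all with limma adjusted p = 1.00, in a comparison that called 5 genes, 0.024% of those tested. Rgs2 averaged 0.17 lower in the knockout, at -0.17 with an unadjusted 95% interval of -0.29 to -0.04 that does not include 0, and it did not pass the adjustment over all genes. That interval, too, may be too narrow because of how the genes were picked. The low-oxygen response itself differed between genotypes by -0.44 for Plxna4 to 0.84 for Atp13a4, knockout minus wild type, with limma adjusted p = 1.00 for each of the 8 genes and 0 genes called (244 at an unadjusted p under 0.05). The interval for Atp13a4 ran from -0.08 to 1.76. Only 2 of 6 Atp13a4 controls were above background, and for Plxna4 0 of 6 controls and 1 of 6 samples at oxygen 1 were. Lurap1l and Cyp2s1 were above background in 7 of 18 samples each. Much of the differences of these genes is thus between background signals.

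Relatives of the 8 genes, in 10 lists of 203 genes, were counted in the starvation comparison. Of the 152 tested, 44 passed in the knockout, 24 higher and 20 lower, and 47 in the wild type, 28 higher and 19 lower. These are 28.9% and 30.9% of the relatives, against 13.4% and 12.5% of all genes. The sets are not alike: every relative has a symbol, but only 14008 of the 20813 genes do. The lists were also chosen with earlier results of these data known, so the shares are a description and were not tested. The median difference over the relatives was 0.03 in the knockout and 0.07 in the wild type, against 0.02 in the knockout and 0.03 in the wild type over all genes.

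Among tetraspanins, Cd9, which organises partners in the membrane of many leukocytes, rose by 2.21 in the knockout and 2.06 in the wild type, and Tspan13 by 2.25 and 1.81, while Tspan6, above background in no starved sample, was at least 1.61-fold lower in the knockout and at least 1.57-fold lower in the wild type. Of the 23 tetraspanins tested, 6 passed in the knockout and 8 in the wild type. Polyamine genes changed little in size. Sat1, which acetylates spermine and spermidine for export, rose by 0.65 in the knockout and 0.59 in the wild type, Sat2 rose by 0.68 and 1.03, and Srm, which makes spermidine, fell by 0.65 in the knockout and by 0.46 in the wild type. These were the 3 of 16 that passed in both genotypes.

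Of the plexin, semaphorin and neuropilin genes, 8 of 23 passed in each genotype. The receptor Plxna2 rose by 0.81 in the knockout and 0.78 in the wild type, and the ligand Sema4b by 0.78 and 1.01, while the secreted ligand Sema3b fell by 1.80 in the knockout and by 1.94 in the wild type. In the aryl hydrocarbon receptor list 3 of 10 genes passed in each genotype. The receptor Ahr itself rose by 1.33 in the knockout and 1.05 in the wild type, and Nqo1, a quinone reductase, by 1.19 and 1.01. Cyp1b1, a P450 that the receptor induces, fell by 1.14 in the knockout and by 1.34 in the wild type. Of 15 retinoid genes, 5 passed in the knockout and 4 in the wild type, among them 3 dehydrogenases and reductases that rose, Dhrs9 by at least 2.33-fold in the knockout and at least 2.64-fold in the wild type, since no control was above background, and, on the log2 scale, Rdh11 by 0.76 and 0.89, and Dhrs3 by 0.63 and 0.67.

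Of 12 trypsin-like proteases tested, 4 passed in each genotype. Prss50 rose by 1.55 in the knockout and 1.46 in the wild type, Hpn, the membrane protease hepsin, fell by 1.07 in the knockout and by 0.88 in the wild type, and Prss23 passed as lower, by at least 1.46-fold in the knockout and at least 1.45-fold in the wild type. No starved sample of Prss23 was above background, and of its controls 1 of 3 in the knockout and 2 of 3 in the wild type were. Those controls are 1 side of the comparison and counted towards passing the filter on dim probes. The calls of Prss23 are therefore no independent test. Of 21 integrins and discoidin receptors, 8 passed in the knockout and 9 in the wild type. Itgb3, the partner of the alpha V chain, rose by 2.13 in the knockout and 2.40 in the wild type and Itgb7 by 2.08 and 1.93, while Itgal, the alpha chain of LFA-1, fell by 1.14 in the knockout and by 1.12 in the wild type. Itgb1, the partner of Itga11, was looked up after its list had been counted and differed by -0.06 in the knockout and 0.02 in the wild type (limma adjusted p = 0.772 and 0.949).

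Myl9, a myosin regulatory light chain of contractile cells, fell by 5.26 in the knockout and by 4.63 in the wild type. Lurap1 rose by at least 1.38-fold in the knockout and at least 1.30-fold in the wild type, with no control above background, and the other 7 of the 9 genes in this list did not pass. Other RGS genes, which like Rgs2 speed the shut-off of G proteins, passed in 4 of 12 cases in the knockout and 5 in the wild type. Rgs1 rose by 2.0 in the knockout and 1.94 in the wild type and Rgs11 by 0.64 and 0.89, while Rgs16 fell by 1.69 in the knockout and by 1.59 in the wild type. Of 11 Gq and Gi signalling genes, 0 passed in the knockout and 1 in the wild type, where Plcb2, a phospholipase C, was 0.58 higher. Among the named relatives, limma adjusted p was highest for Cyp1b1, at 0.0406 in the knockout. Tspan6, Dhrs9 and Lurap1 had no sample above background on 1 side of the starvation comparison. Their other side counted towards passing the filter on dim probes, so their calls, like those of Prss23, are no independent test.

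**Figure D4:**
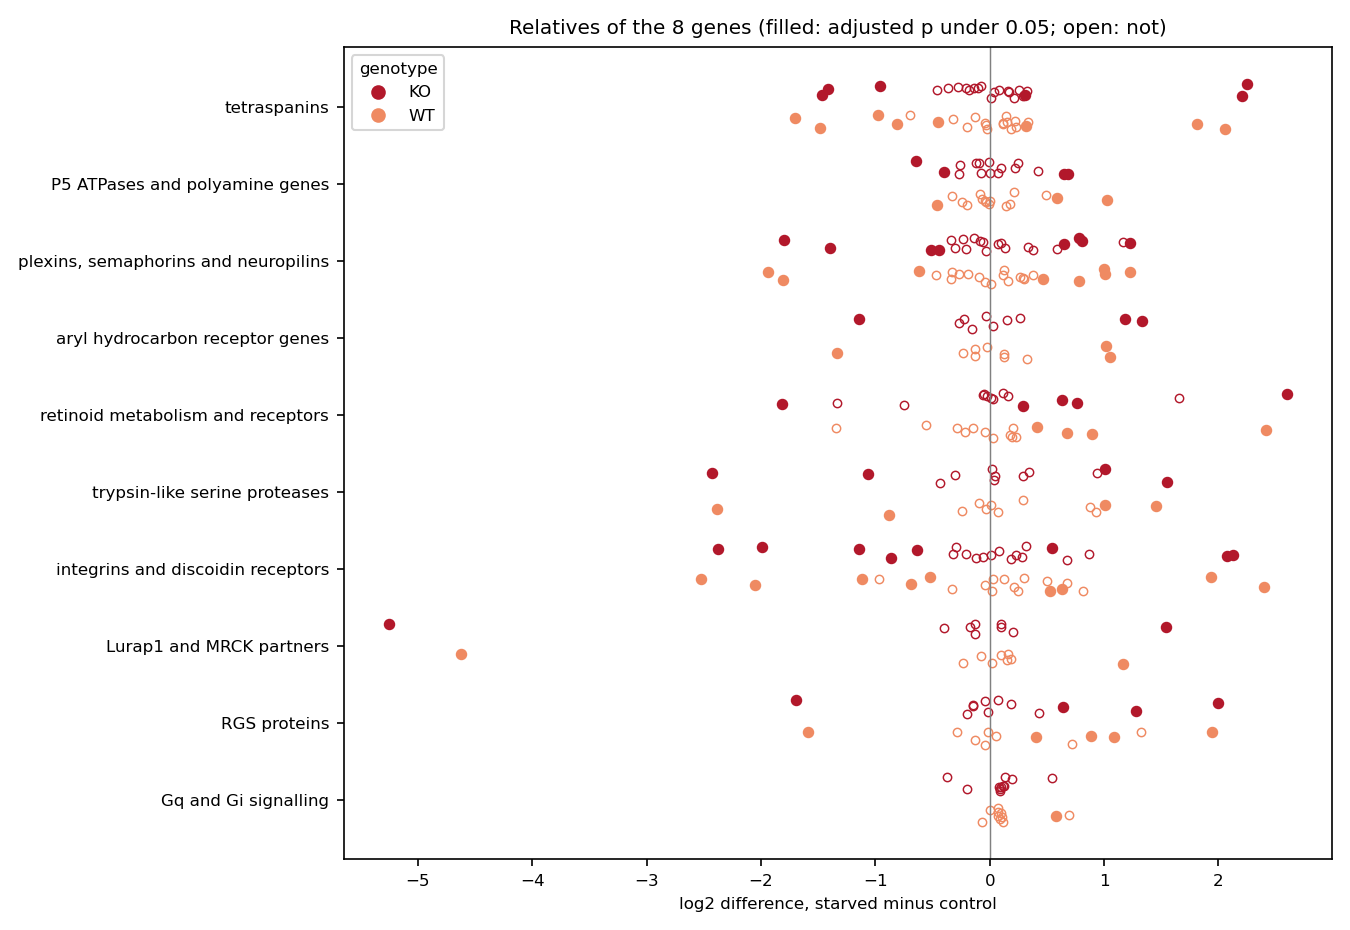
Starved minus control difference in log2 units (x axis) of the 152 tested relatives of the 8 genes, by list, with knockout (KO) above wild type (WT) in each list; filled points passed a limma adjusted p under 0.05 and open points did not. Points lie on both sides of 0 in most lists, with Myl9 farthest to the left at -5.26 and -4.63.

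The genes whose levels followed each of the 8 most closely over the 18 samples were found among 12864 genes with a symbol. The 18 points share the contrast that chose the genes and their control samples, so these correlations are descriptions. Plxna4, Cyp2s1 and Lurap1l were above background in 7 of 18 samples each, so most of their points are background signals. Tspan7 was followed by Cd9 at r = 0.99, by Npy, a neuropeptide, at 0.98 and by Alcam, an adhesion molecule, at 0.98. Atp13a4 and Cyp2s1 shared a close follower in Flrt3, a membrane protein of cell guidance, at r = 0.98 and 0.97. The others were Lum (0.98) and Cadm1 (0.98) for Atp13a4, and Gcnt1 (0.97) and the retinal reductase Rdh11 (0.96) for Cyp2s1.

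Plxna4 was followed by Ctla2a (r = 0.96), the growth factor Hgf (0.95) and the microglial and macrophage receptor Trem2 (0.95). Trem2 itself averaged 5.96 in starved knockout and 6.12 in starved wild-type samples, against 4.68 in knockout and 4.70 in wild-type controls. For Prss46 the closest were Rab15 (0.99), the interleukin receptor Il1r1 (0.98) and the growth factor Pdgfa (0.97). Rgs2 was followed by Emp1 (0.99), by Havcr2, an inhibitory receptor also called TIM-3 (0.99), and by the sphingosine phosphate receptor S1pr1 (0.99).

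The genes lower in starved cells had other followers. Itga11 was followed by Serpinh1 (r = 0.99) and Fkbp10 (0.98), both chaperones of collagen folding, and by Col1a2 (0.98). Serpinh1 averaged -5.21 in starved knockout and -5.06 in starved wild-type samples, against -2.30 in knockout and -2.0 in wild-type controls. Lurap1l was followed by the secreted matrix protein Ccn4 (0.95), by Lrrc32 (0.95) and by Cnn1, the calponin of smooth muscle (0.95). Ccn4 was above background in no starved sample and, at oxygen 1, in 1 knockout sample only. Cnn1, above background in no starved sample, averaged -8.21 in starved knockout and -7.74 in starved wild-type samples, against -3.44 in knockout and -3.10 in wild-type controls. Among the 8 genes, pairs correlated at sizes between 0.72, for Prss46 with Rgs2, and 0.97, for Atp13a4 with Cyp2s1.

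**Figure D5:**
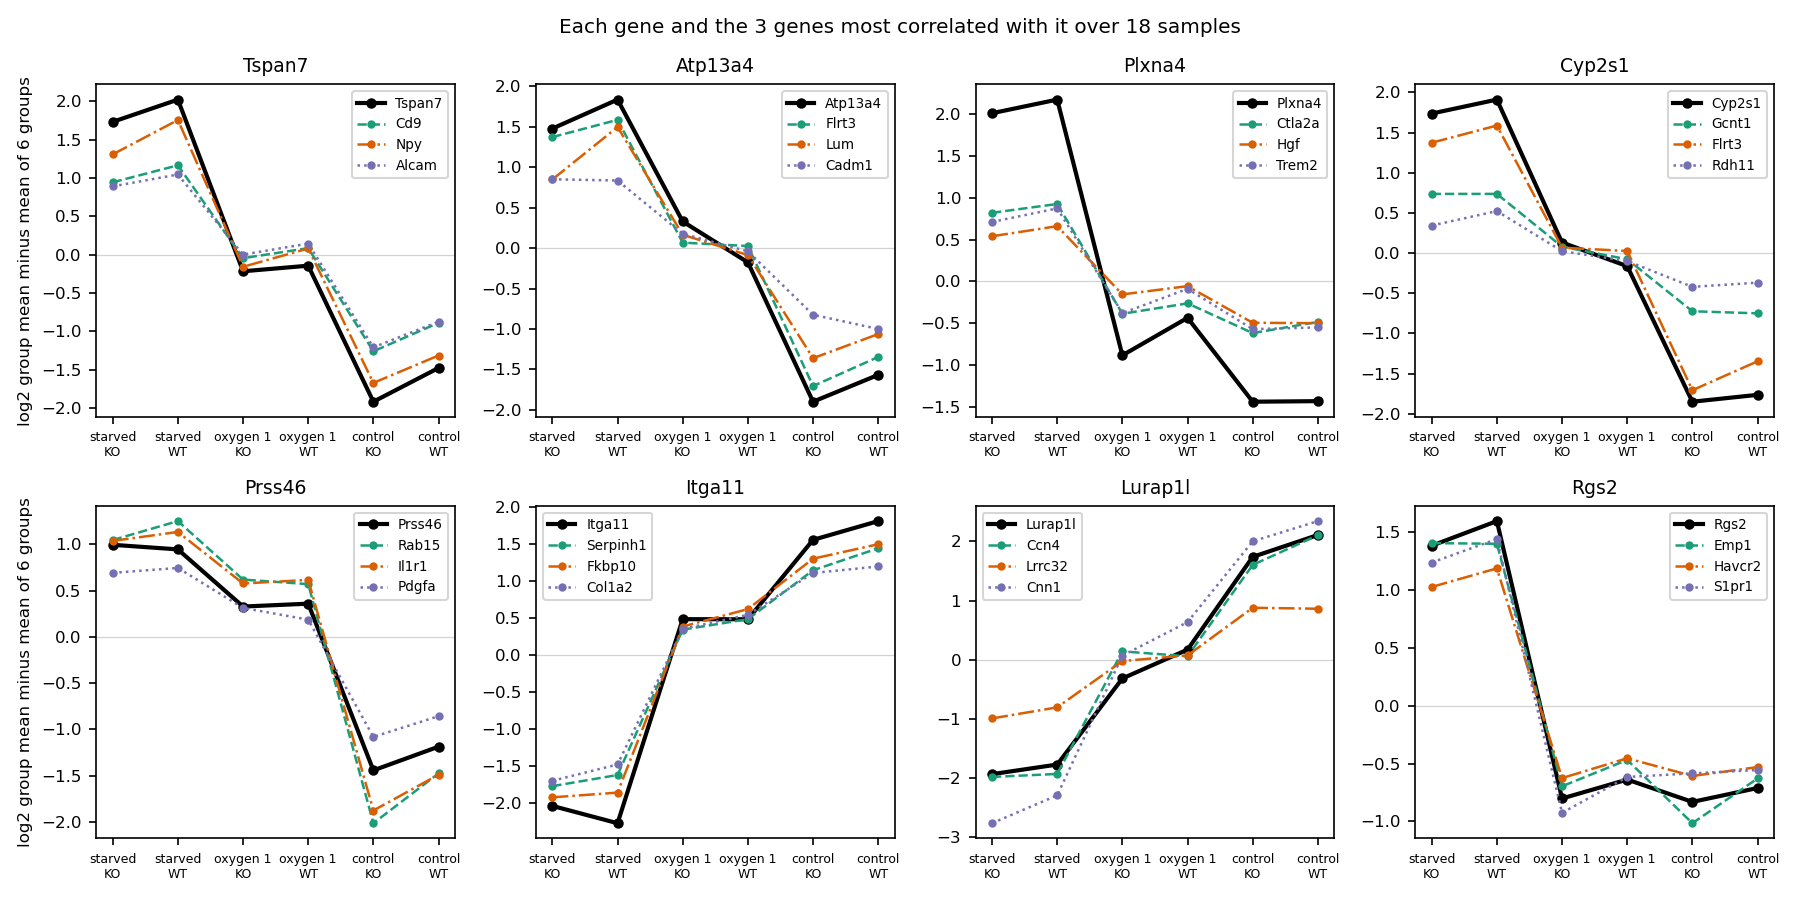
Group means of each of the 8 genes (black) and of the 3 genes most correlated with it over the 18 samples (dashed, dash-dotted and dotted), in log2 units after subtracting each gene's mean over the 6 groups (y axis), for starved, oxygen 1 and control groups of knockout (KO) and wild-type (WT) mice. In every panel the starved means of the followers lie on the same side of their other means as those of the gene itself. For Tspan7, Atp13a4, Plxna4, Cyp2s1 and Itga11 the starved minus control differences of all followers are smaller than that of the gene.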

How the data were processed

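Spot intensities in the deposited scanner files come from 1 colour and, per the file headers, had background subtracted and spatial trends removed within each array by Agilent Feature Extraction, but were not normalized between arrays. The authors also deposited a table of log2 values, almost equally distributed in every sample, which served as an alternative. The submitters' processing notes name limma.

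Here, log2 processed signal minus the 75th percentile of each of the 20 arrays was used. Outlier-flagged spots were left out, and samples with 2 arrays were averaged. Probes well above background in at least 3 of 18 samples were kept, and the brightest stood for each gene. Probes were named by matching transcript accessions to RefSeq symbols. A model of 6 group means over all 18 samples was fitted with limma 3.58.1 in R 4.3.3, and its two-sided moderated p-values were adjusted by Benjamini and Hochberg over 20813 genes (threshold 0.05). The fit was tested on simulated data. Where no sample of the lower group was above background, "at least" gives the fold against the lowest signal that counts as above background on the array. Where the measured signal was higher than that, it was used instead. Some probes were not flagged as above background at higher signals. It is thus a bound only on the scale of these processed signals, and normexp gave folds below it for Itga11, Lurap1l, Cyp2s1 and Plxna4 under starvation. Starvation differences were also smaller with normexp for Atp13a4, Tspan7 and Prss46. Summed marker levels are log2 of signals summed on that scale. With 3 samples in a group, sample number sets the precision.

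The 8 genes and all lists were chosen with earlier results of these data known. Named relatives are at most 3 per list that passed in both genotypes in one direction, with the smallest larger adjusted p, or at most 2 that passed in 1 genotype where none did in both. Most correlated genes are the 3 with the highest Pearson r that have a symbol and are above background throughout a group. Alternatives were other normalizations and background correction, the authors' values, other filters, the mean over probes, slide and replicate blocks, leaving out samples, and 1 array per sample. Samples were grouped by their labels.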

Additional observations from a re-analysis of the deposited data

How the results depend on the processing

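No result changed its direction while past the threshold under any alternative. The normexp correction, which compresses dim signals, lowered the counts. For starvation it left 902 genes and 18 relatives called in the knockout (2791 and 44 as reported), and 1133 genes and 19 relatives in the wild type (2596 and 47). For oxygen 1 it left 4233 genes and 3 of the 8 described here in the knockout (8289 and 6), 3918 genes and 2 of the 8 in the wild type (8037 and 6), and 3 genes for the averaged genotype difference (5). It moved the median starved minus control difference of all genes to 0.19 in the wild type (0.03 before). Without the 3 samples found apart, starved minus control in the wild type was 3.72 for Atp13a4 and -3.64 for Itga11. Under normexp, starved minus control became -1.25 for Itga11, -0.67 for Lurap1l and 0.73 for Cyp2s1 in the knockout, and -0.80, -0.12 and 1.33 for them in the wild type. It became 1.47 for Atp13a4, 2.73 for Tspan7 and 2.25 for Prss46 in the knockout, and 1.92, 2.76 and 1.89 for them in the wild type. Requiring all 18 samples above background left 3 of the 8 genes, 2 of them called at oxygen 1 in each genotype, since fewer genes were tested. With the mean over probes Plxna4 differed by 2.42 in the knockout and 1.53 in the wild type under starvation. The averaged genotype count was 3 with the authors' values, the mean over probes or slides as a block, and 2 with the first array only; the cause was not tested.

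Leaving out 1 sample gave 1664 to 2552 genes for starvation in the wild type, lowest without starved replicate 1, and 2001 to 2209 in the knockout. It gave 4 to 6 genes for the averaged genotype difference and 0 to 1 at oxygen 1. Without the 3 samples that an earlier analysis found apart, 6 of the 8 genes were called at oxygen 1 in each genotype. With the replicate number as a block, 2786 genes were called for starvation in the knockout and 2612 in the wild type, for oxygen 1 8509 in the knockout and 8139 in the wild type, 0 for genotype at oxygen 1 and 3 for the averaged difference. Same-numbered starved and control samples correlated at 0.00 to 0.25 in their deviations from group means and 5 of 6 correlated best with their own number, a hint of pairing that the labels do not state. These samples also shared a slide, and with the slide as a block 2561 genes were called for starvation in the knockout and 2587 in the wild type. Neither block changed a call of the 8 genes at oxygen 1. Probes of Plxna4, Cyp2s1 and Lurap1l were above background in 7 of 18 samples each, which limits their folds to bounds.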
